A study of Mus musculus with 3 samples.

Results

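The 7 genes described here, Ccl3, Ccl4, Ccl5, Ccl6, Ccl9, Cxcl2 and Xcl1, encode secreted inflammatory chemokines and were chosen by name from the 27998 genes measured in single cells of mouse meninges. Their unique molecular identifiers (UMIs, 1 per captured transcript) were read in the 7057 barcodes that held at least 500 UMIs, a number of genes within the study's limits and under 8.3% of UMIs from mitochondrial genes. Meninges came from male C57BL/6J mice aged 10 to 12 weeks in pools of 4 animals, and each pool gave 1 library. Both control libraries, HC replicate 1 and HC replicate 2, came from unstressed homecage mice. CSD replicate 1 came from mice that were stress-susceptible after chronic social defeat (CSD) for 14 days, in which an aggressor repeatedly defeats the test mouse. All pools were perfused, digested with collagenase D and DNase at 37 °C for 30 min, and sorted for live nucleated single cells, so no cell type was selected. With a single CSD pool, an effect of stress cannot be told apart from a difference between pools, and a library's value cannot be traced to 1 mouse.

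Chemokines are small secreted proteins that attract leukocytes through G protein-coupled receptors. Ccl3, Ccl4 and Ccl5 (MIP-1 alpha, MIP-1 beta and RANTES) draw monocytes and lymphocytes, and Ccl3 and Ccl5 act on CCR1. Ccl6 and Ccl9 are rodent chemokines that act on CCR1, Cxcl2 draws neutrophils through CXCR2, and Xcl1 (lymphotactin) draws XCR1-bearing dendritic cells. At the borders of the brain such signals direct the traffic of neutrophils, monocytes and lymphocytes.

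The libraries held 9891861, 8814690 and 10206236 UMIs, and 2599, 1702 and 2756 barcodes passed, in the order HC replicate 1, HC replicate 2 and CSD replicate 1 that is kept throughout. HC replicate 2 stood apart: 24.1% of its UMIs lay in barcodes with at most 100 UMIs (empty droplets), against 7.87% and 5.48% in the others. Across libraries 17 barcode sequences recurred. After removal of likely doublets, 6844 cells formed 23 clusters and 21 classes, of which 19 took a name from marker genes and 15 had at least 20 cells in every library. A background level was estimated in each class outside the B lineage. It rests on the empty-droplet profile and on 7 pro-B genes (Vpreb1, Vpreb3, Igll1, Dntt, Rag1, Cd79a and Cd79b) found in cells of other types. It is called the level expected from free RNA, meaning RNA from broken cells, but the source of this background was not tested. In the classes with at least 20 cells in every library, this estimate put 18.3 to 46.7% of UMIs (median 31.9%) to the empty-droplet profile. In smaller classes it ran from 0% (endothelial-like, CSD replicate 1) to 98.2% (pDC-like, CSD replicate 1). In basophil and mast cell-like cells it rests on 15, 18 and 23 UMIs of these genes. The share was alike at unlike depths: 31.7, 34.7 and 28.1% in a neutrophil-like cluster (cluster 2, below) and 31.7, 29.2 and 34.0% in myeloid progenitor-like cells. Their median depths were 1113 and 11186 UMIs per cell.

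Of the 7 genes, 5 lay within 138.905 kb of chromosome 11 (GRCm38). Ccl5 (83525778 to 83530518), Ccl9 (83572919 to 83578636), Ccl6 (83587882 to 83593087) and Ccl3 (83647844 to 83649355) were on the minus strand and Ccl4 (83662584 to 83664683) on the plus strand. Cxcl2 lay on chromosome 5 (90903871 to 90905938, plus strand) and Xcl1 on chromosome 1 (164931644 to 164935527, minus strand). An annotated transcript on the opposite strand overlaps Ccl6 (E230016K23Rik) and Xcl1 (Gm20743), and neither was a row of the count matrix. The 150 bases before the RefSeq start (GRCm38.p6) could be read for 5 of the 7 genes and are printed 5′ to 3′ on the gene's strand, since they let the neighbours on chromosome 11 be compared. Capitals mark matches, on either strand, to the NF-kB consensus, AP-1 (TGANTCA), ETS (AGGAAGT) or TATAAA.
Cxcl2: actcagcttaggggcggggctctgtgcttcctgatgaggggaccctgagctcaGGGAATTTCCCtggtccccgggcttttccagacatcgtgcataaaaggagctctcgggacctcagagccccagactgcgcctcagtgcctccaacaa
Ccl9: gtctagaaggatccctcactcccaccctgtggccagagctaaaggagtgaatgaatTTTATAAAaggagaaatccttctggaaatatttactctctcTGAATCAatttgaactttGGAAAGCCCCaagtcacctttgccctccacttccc
Ccl6: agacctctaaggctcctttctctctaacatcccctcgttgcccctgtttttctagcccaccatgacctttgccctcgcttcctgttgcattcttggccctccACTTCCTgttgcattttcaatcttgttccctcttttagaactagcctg
Xcl1: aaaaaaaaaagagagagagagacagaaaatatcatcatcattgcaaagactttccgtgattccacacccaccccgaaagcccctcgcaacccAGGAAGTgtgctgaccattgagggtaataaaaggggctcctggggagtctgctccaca
Ccl3: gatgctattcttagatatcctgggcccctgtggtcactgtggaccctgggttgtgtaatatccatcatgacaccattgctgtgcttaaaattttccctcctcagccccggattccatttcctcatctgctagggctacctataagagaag
The windows end at the RefSeq start, so those of Cxcl2 and Xcl1 reach into the GENCODE gene. NF-kB matches were present before Cxcl2, on both strands in 1 overlapping palindrome, and before Ccl9 on the reverse strand, against 2.39% of 32475 windows of this length genome-wide. Ccl9 also held AP-1 (4.23% of windows) and a TATAAA match on both strands that overlap (7.55% of windows). Ccl6 and Xcl1 each held the ETS word (5.07% of windows), and Ccl3 held none of the 4 motifs. The longest run shared by the tandem genes Ccl6 and Ccl9 was 13 bases, gccctccacttcc, against 7 to 10 bases in the other 9 pairs. A match describes letters only and is no measured binding site.

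The genes were spread differently over the cell classes, although Ccl5 and Xcl1, and Ccl3 and Ccl4, shared their leading classes. These distributions are given as a description without a test. The plot of levels by class shows all 3 libraries for each gene, in counts of UMIs scaled to the class total (CPM). In every library Cxcl2 was at least 7.79 times the level expected from free RNA in neutrophil-like cells, Ccl6 at least 5.59 times there and 4.85 times in monocyte-like cells, and Ccl9 at least 7.51 times in monocyte-like cells. Ccl3 and Ccl4 were at least 41.4 and 35.9 times that level in basophil and mast cell-like cells, 7.53 and 8.28 times in microglia-like cells, and 5.80 and 3.86 times in border macrophage-like cells. Ccl5 and Xcl1 were at least 30.6 and 83.7 times it in NK-like cells, and Xcl1 at least 18.7 times in T-like cells.

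**Figure D1:**
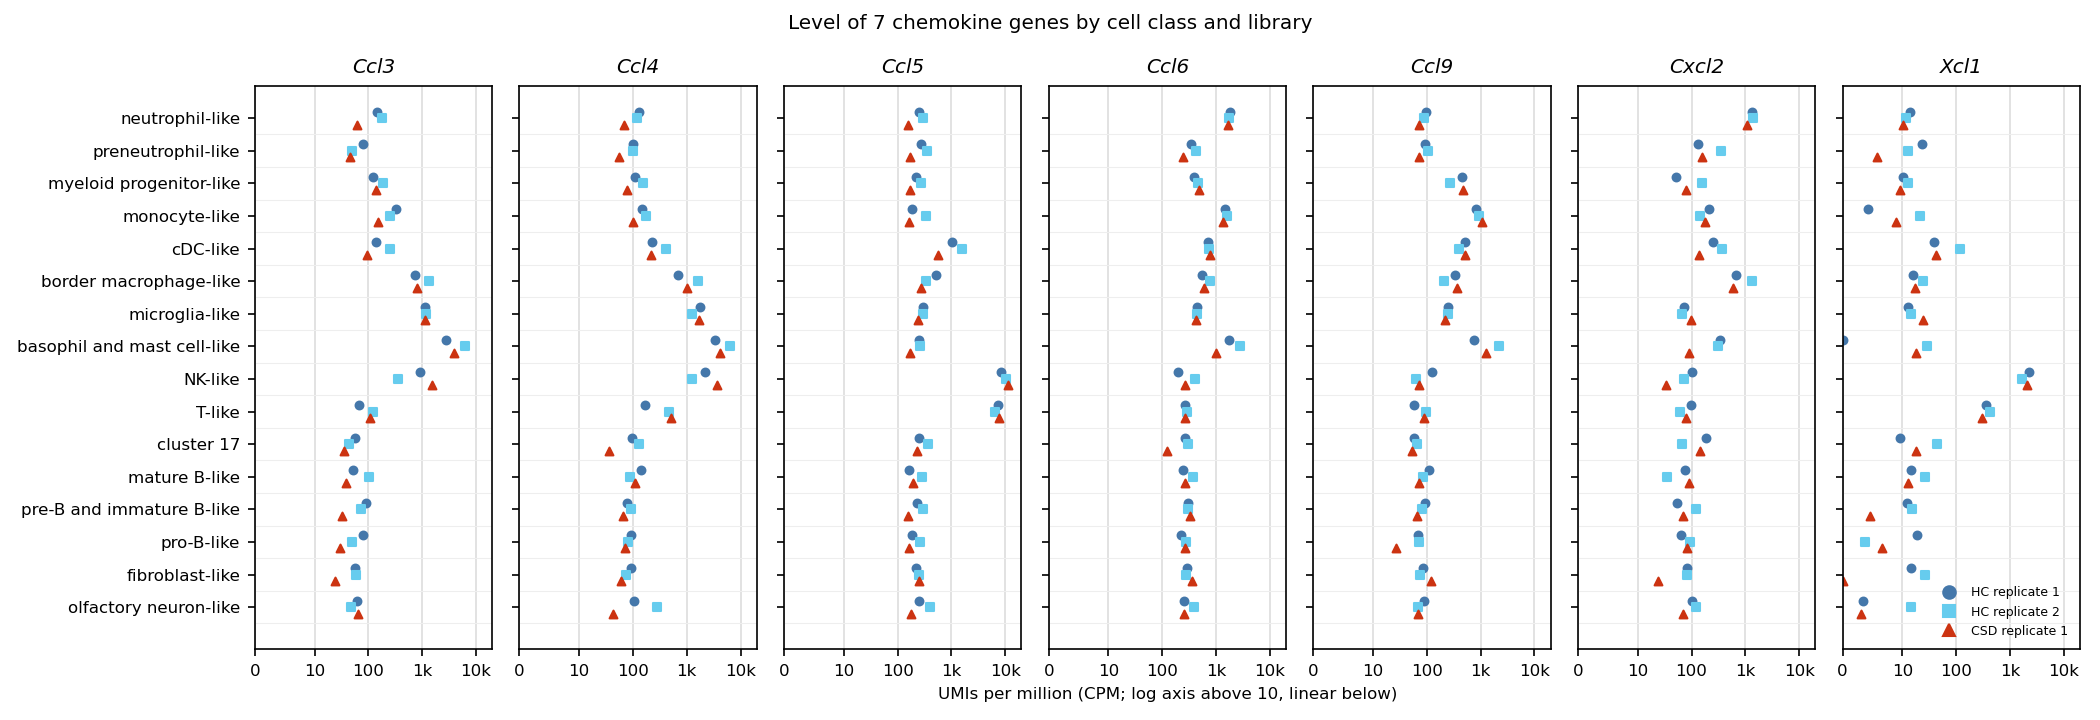
Level of each chemokine gene (x axis, CPM, log scale above 10) in neutrophil, other myeloid, lymphoid and stromal classes (y axis), with 1 point per library. Cxcl2 was highest in the neutrophil-like class, Ccl5 and Xcl1 were highest in the NK-like and T-like classes, and Ccl3 and Ccl4 were high in basophil and mast cell-like, microglia-like, border macrophage-like and NK-like cells.

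Neutrophil-like cells, with 775, 551 and 1243 cells, led the level of Cxcl2 at 1338, 1397 and 1060 CPM (mean 1265 ± 180 SD, n = 3 libraries). Border macrophage-like cells were next at 670, 1311 and 596 CPM (859 ± 393), and these ranges overlapped. The pro-B-like class, which should lack Cxcl2, had 63.8, 94.8 and 83.2 CPM. Of all Cxcl2 UMIs in cells, neutrophil-like cells held 63.7%, 70.5% and 82.0%. With each cell thinned to 500 UMIs, 39.4%, 40.5% and 35.6% of neutrophil-like cells had a Cxcl2 UMI (61.8%, 63.0% and 60.6% unthinned), against 3.45%, 3.70% and 4.35% of pro-B-like cells.

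Ccl6 was at 1851, 1734 and 1682 CPM in neutrophil-like cells (1756 ± 86.8). Monocyte-like cells had 1475, 1611 and 1343 CPM (1476 ± 134), a narrow spread in which the 2 classes did not overlap. With barcodes of at least 1000 UMIs the neutrophil-like mean was 1586 CPM, inside this monocyte-like range. Conventional dendritic cell (cDC)-like cells had 723, 752 and 775 CPM (750 ± 25.6), which was 2.27 to 2.40 times the level expected from free RNA. The small basophil and mast cell-like class, with 18, 11 and 22 cells, had 1747, 2747 and 1015 CPM and overlapped the neutrophil-like values. Pro-B-like cells were at 222, 277 and 260 CPM.

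Ccl9, the tandem neighbour of Ccl6, had its highest mean in the small basophil and mast cell-like class, at 766, 2146 and 1254 CPM (1389 ± 700.0). These values overlapped those of monocyte-like cells, which were at 815, 929 and 1049 CPM (931 ± 117). Ccl9 was at 517, 393 and 512 CPM in cDC-like cells (474 ± 70.2), and 456, 269 and 468 CPM in myeloid progenitor-like cells (398 ± 111). Neutrophil-like cells showed 98.0, 89.2 and 72.6 CPM, close to the 105, 76.0 and 66.2 CPM expected there from free RNA. Among monocyte-like cells with a Ccl6 UMI, 265 of 286 also had a Ccl9 UMI. In the neutrophil-like cluster with the most Ccl6 (cluster 2, below), 111 of 830 did. Depth differed between these groups, with median UMIs of 4946.5 and 1129 per cell.

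**Figure D2:**
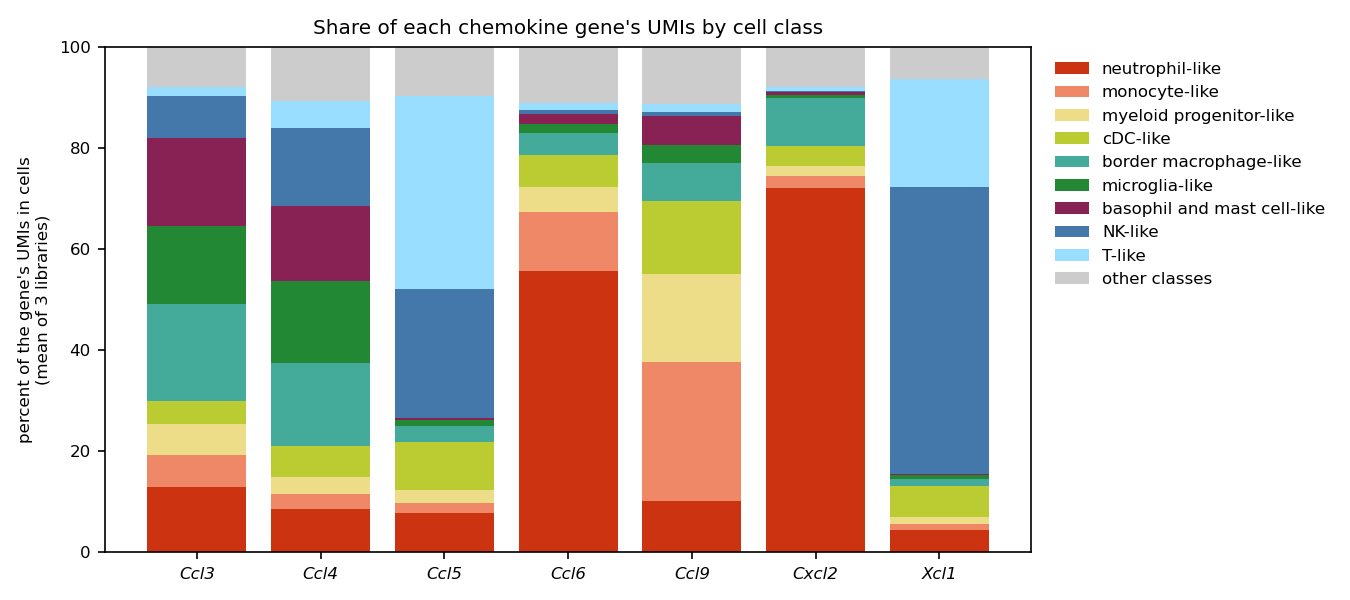
Share of each gene's UMIs in cells (y axis, percent, mean of 3 libraries) held by each cell class (colours, with the remaining classes in grey), with 1 bar per gene. Neutrophil-like cells held on average 72.1% of Cxcl2 and 55.7% of Ccl6 UMIs, NK-like cells held 56.7% of Xcl1 and T-like cells 38.0% of Ccl5, while no class held more than 19.2% of Ccl3 or 16.4% of Ccl4.

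The neutrophil-like class was made of 3 clusters that differ in maturation genes. Cluster 1 was led by Camp, Ltf and Ngp, which encode secondary granule proteins of immature cells. Cluster 3 was led by Retnlg and Mmp8, and cluster 2 by Il1b and Slc7a11. Ccl6 was at 434, 433 and 349 CPM in cluster 1, 2367, 2287 and 2308 CPM in cluster 3, and 5581, 5740 and 5392 CPM in cluster 2. Cxcl2 took the same order, with 584, 772 and 475, then 1606, 1887 and 1200, then 3329, 2921 and 2912 CPM. In neither gene did the clusters overlap, and in cluster 2 both stood at least 17.7 times above the level expected from free RNA. The chemokine genes described here, their receptors and mitochondrial genes were left out of the genes used for clustering. Maturation genes such as Camp and Il1b were not left out, so the order is a description and no test of maturation.

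Ccl3 was also highest in cluster 2 among the neutrophil-like clusters. It was at 437, 507 and 139 CPM in cluster 2, where 101, 88.3 and 69.8 CPM were expected from free RNA, against 83.2, 116 and 45.5 CPM in cluster 1 and 73.8, 121 and 49.0 CPM in cluster 3. Within cluster 2, 63 of 290, 38 of 175 and 50 of 410 cells had a Ccl3 UMI. Of those 151 cells 34 also had a Ccl4 UMI (22.5%), against 11.5% of the cells without Ccl3, at median depths of 1129 and 1103 UMIs. A Cxcl2 UMI was as frequent in cells with Ccl3 (68.9%) as without (69.1%). Ccl4 in cluster 2 was at 226, 248 and 89.3 CPM, where 143, 106 and 79.8 CPM were expected from free RNA.

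**Figure D3:**
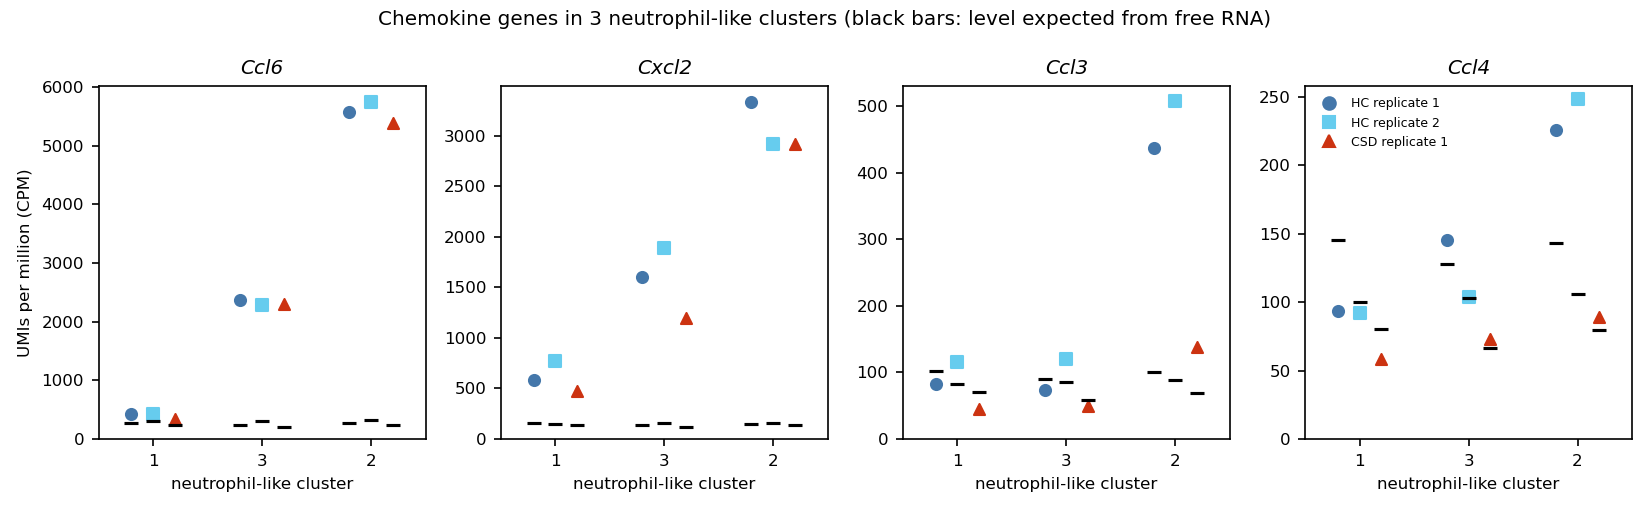
Levels of 4 chemokine genes (y axis, CPM) in the 3 neutrophil-like clusters (x axis), with 1 point per library and black bars at the level expected from free RNA. Ccl6 and Cxcl2 were far above the bars in clusters 3 and 2, while Ccl3 and Ccl4 were near them in clusters 1 and 3 and lower in the CSD library in cluster 2.

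Ccl3 and Ccl4 were the most widely shared of the 7 genes. Basophil and mast cell-like cells had 2746, 6296 and 3911 CPM of Ccl3 (4317 ± 1809) and 3353, 6467 and 4175 CPM of Ccl4 (4665 ± 1614). The class is small, yet it held 11.9%, 16.0% and 24.8% of all Ccl3 UMIs, and 37 of its 39 cells with Ccl3 also had Ccl4.

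Microglia-like cells had Ccl3 at 1125, 1160 and 1154 CPM (1146 ± 18.7), almost the same in the 3 libraries. Their Ccl4 was at 1744, 1266 and 1694 CPM (1568 ± 263). Border macrophage-like cells (312, 56 and 120) had Ccl3 at 745, 1323 and 819 CPM (962 ± 315). Their Ccl4 was at 699, 1598 and 1028 CPM (1108 ± 455), with HC replicate 2 high in both genes. Finer clustering (Leiden resolution 2) gave a border macrophage-like cluster led by Cd74 and H2-Eb1 (150, 50 and 72 cells) and another led by Pf4 (167, 7 and 50 cells). The mix thus differed between libraries, and its part in these levels was not tested. Among these macrophages 156 of the 263 cells with Ccl3 had Ccl4 (59.3%), against 33.3% of those without, at median depths of 2956 and 2496 UMIs. The ranges of microglia-like, border macrophage-like and NK-like cells overlapped for both genes. In pro-B-like cells Ccl3 was at 78.8, 49.3 and 30.0 CPM and Ccl4 at 93.9, 79.6 and 69.9 CPM.

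Ccl5, which cytotoxic lymphocytes store and release, was at 8455, 10220 and 11270 CPM in NK-like cells (9982 ± 1423) and 7346, 6404 and 7606 CPM in T-like cells (7118 ± 632), with no overlap between the classes. At 500 UMIs per cell it was detected in 88.1%, 91.5% and 94.0% of NK-like cells (97.0%, 97.9% and 96.4% unthinned) and in 64.0%, 60.0% and 68.5% of T-like cells. The corresponding pro-B-like shares were 12.1%, 18.5% and 5.80%. cDC-like cells followed at 1035, 1549 and 555 CPM, or 2.46 to 4.54 times the level expected from free RNA.

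Xcl1, which activated NK and T cells secrete, was at 2303, 1703 and 2064 CPM in NK-like cells (2023 ± 302) and 357, 430 and 300 CPM in T-like cells (362 ± 65.3). In every other class with at least 20 cells per library its mean was at most 66.9 CPM, the value in cDC-like cells. Finer clustering (Leiden resolution 2) split NK-like cells in a cluster with Gzma, Klra8 and Eomes UMIs and a cluster with Cxcr6 UMIs and no Eomes UMI in any library. Ccl5 was at 11755, 12444 and 14665 CPM in the first and 5111, 6295 and 6573 CPM in the second. Xcl1 was at 1849, 1356 and 2322 CPM in the first and 2762, 2317 and 1705 CPM in the second, so its ranges overlapped.

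In NK-like cells the levels of Ccl3 and Ccl4 in the CSD library rested on 1 cell. Ccl3 was at 907, 355 and 1541 CPM and Ccl4 at 2224, 1239 and 3632 CPM, with CSD replicate 1 above both HC libraries in each. One cell of the CSD library, with 3022 UMIs, held 209 of its 280 Ccl3 UMIs, 392 of 660 Ccl4 UMIs and 135 of 375 Xcl1 UMIs. With the cell richest in these chemokines left out of every library, a choice made after seeing the data, Ccl3 was at 665, 347 and 397 CPM, Ccl4 at 1709, 1245 and 1500 CPM, and Xcl1 at 2270, 1573 and 1343 CPM. Ccl3 and Ccl4 in the CSD library then lay between the HC libraries. The thinned share of NK-like cells with a Ccl4 UMI was 40.3%, 38.3% and 35.7%, and with an Xcl1 UMI 55.2%, 46.8% and 26.2% (79.1%, 76.6% and 71.4% unthinned).

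**Figure D4:**
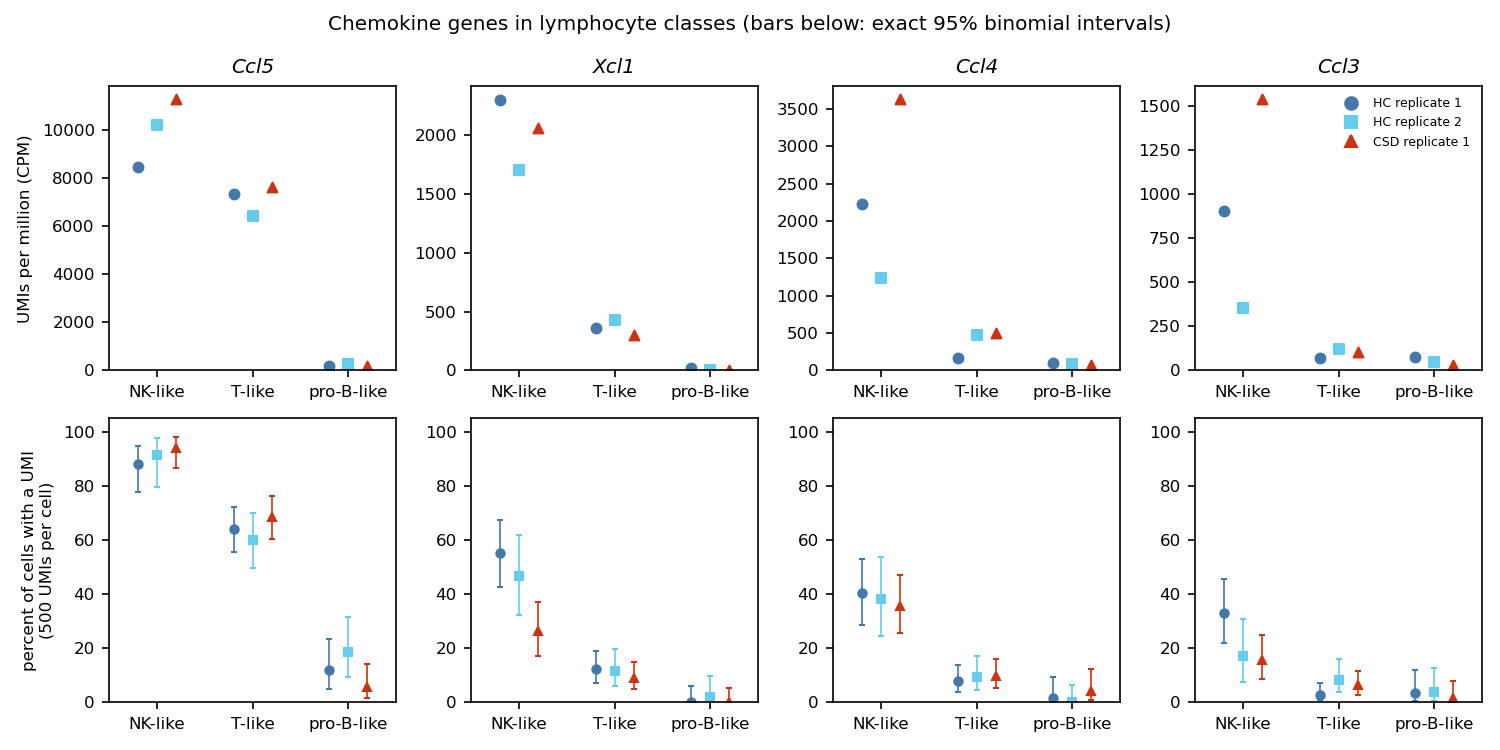
Upper row, level (y axis, CPM) of Ccl5, Xcl1, Ccl4 and Ccl3 in NK-like, T-like and pro-B-like cells by library. Lower row, percent of cells with a UMI after thinning to 500 UMIs, with exact 95% binomial intervals. CSD replicate 1 was the highest NK-like library for Ccl4 and Ccl3 in CPM, but not in the share of cells.

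Receptors of these chemokines were read in the same clusters. Cxcr2, the receptor of Cxcl2, was at 97.4, 121 and 106 CPM in cluster 1, 327, 335 and 365 CPM in cluster 3, and 595, 634 and 700 CPM in cluster 2. Ccr1 was at 68.1, 76.5 and 68.0 CPM in cluster 1, 183, 239 and 228 CPM in cluster 3, and 295, 472 and 382 CPM in cluster 2. Both thus took the same order of clusters as Cxcl2 and Ccl6.

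By Pearson correlation of log2(CPM + 1) over 15 cell types, among 11080 genes with at least 50 UMIs, the gene most like Ccl3 was Ccl4 (r = 0.91), followed by Efhd2 (0.87) and Mob3c (0.85). Ccl5 and Xcl1 were each other's nearest (0.97), then Klrd1 (0.96) and Nkg7 (0.94) for Ccl5, and Gzmb (0.96) and AW112010 (0.95) for Xcl1. Ccl4 was next most like Il10rb (0.90). For Ccl6 they were 1600010M07Rik (0.92), Lst1 (0.89) and Alox5ap (0.87), and for Ccl9 Mpeg1 (0.92), Ms4a6c (0.92) and Ccdc109b (0.91). Cxcl2 was nearest to BC100530 (0.86), Il1b (0.86) and Adam8 (0.85). The 15 points come from the same 3 libraries and were not corrected for the level expected from free RNA.

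CSD was compared with HC in 5 classes on UMIs summed per library, with edgeR's quasi-likelihood test and Benjamini-Hochberg adjustment over all genes seen in more than 15% of a class's cells. Its spread comes from the 2 HC libraries alone, which leave 1 residual degree of freedom, and is moderated by the spread over all genes tested. The median prior degrees of freedom were 6.41 (neutrophil-like), 11.4 (monocyte-like), 8.17 (border macrophage-like), 7.17 (NK-like) and 575 (T-like). Each p-value thus leans more on the spread across genes than on replicate pools. CSD replicate 1 is taken to scatter as the HC libraries do. A permutation test over 3 libraries cannot go below p = 0.333, so none was made.

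In neutrophil-like cells 1 of the 6 chemokine genes tested passed, against 1.19% of all genes tested (14 of 1180). Ccl3, at 145, 176 and 61.5 CPM from 270, 231 and 200 UMIs, was lower in CSD by a log2 fold change of -1.30 (SE 0.19, edgeR adjusted p = 0.0193). CSD was below both HC libraries in each of the 3 clusters, with log2 fold changes of -1.04, -1.66 and -0.90 in clusters 1, 2 and 3. Ccl3 lay at 0.65 to 1.40 times the level expected from free RNA in cluster 1 and 0.81 to 1.41 times in cluster 3. In cluster 2 it lay at 1.99 to 5.74 times that level. The expected level was itself lowest in CSD in each cluster, and its part in these fold changes was not tested. For the class as a whole, dropping HC replicate 1 gave -1.40 and dropping HC replicate 2 gave -1.21. The call was lost with barcodes of at least 1000 UMIs (adjusted p = 0.156), with doublets kept (0.0747), with all genes of at least 20 UMIs tested (0.261, with 0.0128% of genes called) and without TMM scaling (0.121), each with Ccl3 lower in CSD.

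Signals of macrophages, microglia, antigen-presenting cells and fibroblasts also had smaller values in neutrophil-like cells of the CSD library. Ccl3 in empty droplets was at 320, 254 and 249 CPM, and the level of Ccl3 expected from free RNA in the class was 99.6, 84.6 and 67.1 CPM. Subtraction of the empty-droplet profile left 84, 120 and 0 Ccl3 UMIs, and the test then gave an edgeR adjusted p of 0.272. Ccl3 in CSD, at 61.5 CPM, was below the level expected from free RNA, and counts below 0 were set to 0. The 0 therefore cannot show whether the direction held. After this subtraction none of the 1180 genes tested in the class was called (84 at an unadjusted p under 0.05), against 14 before it. The 13 border macrophage markers together were at 3950, 1715 and 1091 CPM in neutrophil-like cells, with at most 1 marker at 0 in a library, and the 8 microglia markers at 343, 349 and 132 CPM. Cd74, H2-Aa, H2-Ab1, H2-Eb1 and Mgp, which mark antigen-presenting cells and fibroblasts, were called lower in CSD in neutrophil-like, monocyte-like and T-like cells alike. Cd74 in empty droplets was at 4465, 5222 and 2036 CPM. Not every signal was lower there in CSD, since the erythroid gene Hbb-bs was at 2473, 6278 and 12540 CPM in empty droplets. The part of these signals in the Ccl3 result was not tested.

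The other chemokine genes of neutrophil-like cells did not pass. Cxcl2 had a log2 fold change of -0.29 (SE 0.15, edgeR adjusted p = 0.399), Ccl6 of -0.02 (SE 0.16, adjusted p = 0.961) and Ccl9 of -0.30 (adjusted p = 0.476). Ccl4, at 131, 119 and 67.4 CPM, had -0.82 (adjusted p = 0.138) and Ccl5, at 255, 300 and 154 CPM, had -0.76 (adjusted p = 0.0610). Both lay near the level expected from free RNA in all libraries, which was 140, 102 and 76.8 CPM for Ccl4 and 190, 342 and 160 CPM for Ccl5. Ccl5 passed, at an adjusted p of 0.0436, without the top cell of each library. In the receptors, Cxcr2 (log2 fold change 0.18, adjusted p = 0.554) and Ccr1 (0.10, adjusted p = 0.771) did not pass either.

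**Figure D5:**
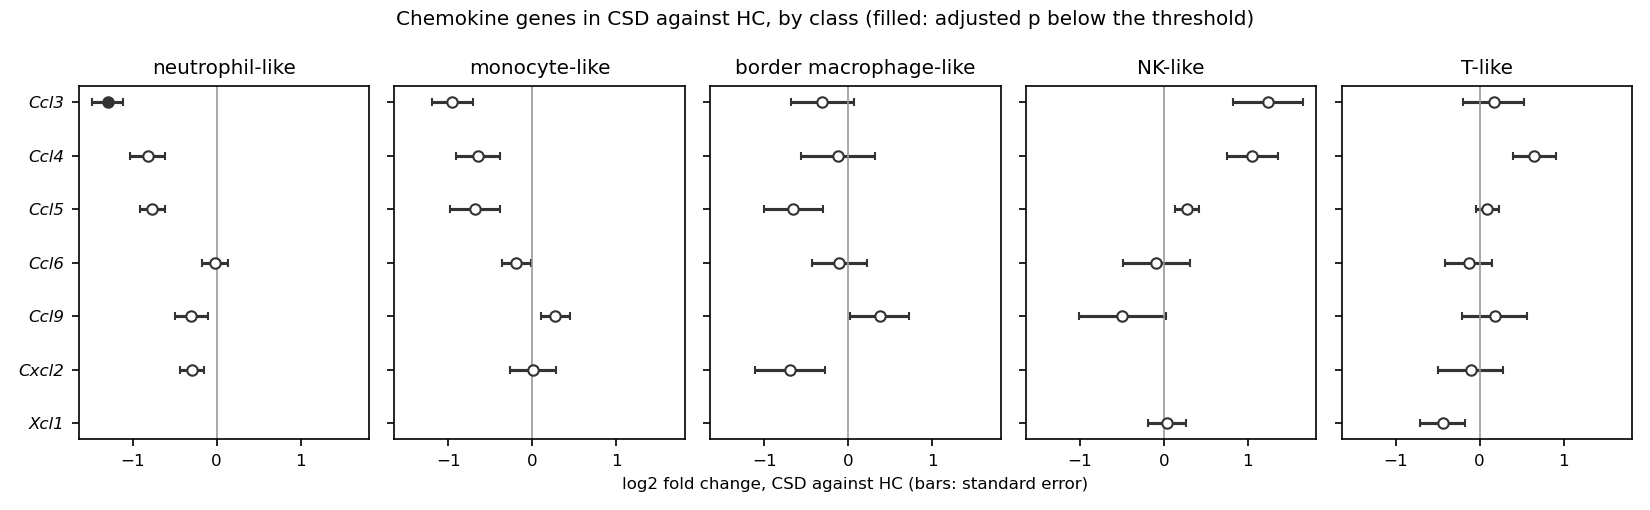
Log2 fold change of each chemokine gene in CSD against HC (x axis, bars are standard errors) in 5 cell classes (panels), with a filled point where the edgeR adjusted p was below 0.05. Ccl3 in neutrophil-like cells was the only filled point, at -1.30, and Ccl3 and Ccl4 in NK-like cells had the largest positive values.

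In monocyte-like cells none of the 6 genes tested passed, against 0.331% of all genes (10 of 3024). Ccl3 was at 320, 257 and 149 CPM, or 2.19 to 3.12 times the level expected from free RNA. Subtraction of the empty-droplet profile left 103, 72 and 45 Ccl3 UMIs, and no gene of the class was then called. Before subtraction Ccl3 in CSD was below both HC libraries, with a log2 fold change of -0.95 (SE 0.24, edgeR adjusted p = 0.206). It passed, again lower in CSD, with barcodes of at least 1000 UMIs (adjusted p = 0.00297), with doublets kept (0.00110), without mutual-nearest-neighbour correction (0.000200), with genes of at least 20 UMIs (0.0194) and without the top cell of each library (0.0285). Ccl9 had 0.27 (adjusted p = 0.800) and Ccl6 -0.19 (adjusted p = 0.884). Ccl5, with -0.68 (adjusted p = 0.669), passed only without mutual-nearest-neighbour correction (0.0183).

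In border macrophage-like cells no gene was called by edgeR, and percent called was thus 0 (0 of 1913 genes, 52 at an unadjusted p under 0.05, and 1 called by DESeq2). Ccl3 had a log2 fold change of -0.31 (SE 0.38) and Ccl4 of -0.12 (SE 0.44), with CSD between the HC libraries. Of 488 Ccl5 UMIs in these cells of HC replicate 1, 295 lay in 1 cell.

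The difference between both classes was tested in 1 model with library as a block. The CSD effect on Ccl3 was more negative in neutrophil-like than in border macrophage-like cells by -1.04 on the log2 scale (SE 0.30, edgeR adjusted p = 0.0217), where 2.62% of genes were called (55 of 2098, 54 of them in this direction). This was lost with DESeq2 (adjusted p = 1.00), without TMM scaling (0.353) and without the top cell of each library (0.129). It was not tested after subtraction of the empty-droplet profile. The part of the unlike mix of border macrophage-like cells between libraries was not tested either. For Ccl4 the difference was -0.82 (edgeR adjusted p = 0.163).

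In NK-like cells percent called was 0 (0 of 1636 genes by edgeR, 60 at an unadjusted p under 0.05, and 0 by DESeq2), so none of the 6 genes tested passed. Ccl3 had a log2 fold change of 1.24 (SE 0.42, edgeR adjusted p = 0.984) and Ccl4 of 1.05 (SE 0.30, adjusted p = 0.947). Both passed with barcodes of at least 1000 UMIs (both edgeR adjusted p = 8.35e-07) and without TMM scaling (0.000227 and 0.000132). At 1000 UMIs the NK-like class was smaller (36, 29 and 49 cells, against 67, 47 and 84). Its leading genes were Gzma, Nkg7, AW112010 and Klra8, as in the Gzma cluster at Leiden resolution 2. The T-like class was larger there (160, 107 and 168 cells, against 139, 95 and 143), so class borders had moved. Without the top cell of each library the values were -0.40 for Ccl3 (adjusted p = 0.991) and 0.0035 for Ccl4 (adjusted p = 0.998), so the direction for Ccl3 turned when 1 cell per library was left out. Ccl5 had 0.28 (SE 0.14) and Xcl1 0.04 (SE 0.23), both at an adjusted p of 0.984.

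In T-like cells none of the 7 genes passed, against 1.19% of all genes tested (19 of 1590). Ccl4, at 167, 468 and 503 CPM, had a log2 fold change of 0.65 (SE 0.26, edgeR adjusted p = 0.434), with HC replicate 2 close to CSD. Xcl1 had -0.44 (SE 0.27, adjusted p = 0.943) and Ccl5 0.09 (SE 0.14). Between NK-like and T-like cells the CSD effect on Ccl3 differed by 1.06 (SE 0.37, adjusted p = 0.573), where 0.0556% of genes were called (1 of 1799). It passed with barcodes of at least 1000 UMIs (edgeR adjusted p = 5.64e-05) and with doublets kept (0.00142), and was -0.59 without the top cell of each library. At 1000 UMIs and with doublets kept, the NK-like class was the smaller one led by Gzma (36, 29 and 49, and 36, 29 and 50 cells).

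Lists of genes that commonly accompany chemokine induction were also read. Over all genes tested, 1.19%, 0.331%, 0%, 0% and 1.19% were called in neutrophil-like, monocyte-like, border macrophage-like, NK-like and T-like cells. With shares this low, the absence of calls in a short list is no result about that list. Of 25 early response regulators (NF-kB subunits, their inhibitors and targets such as Tnf and Ptgs2), 6 were tested in neutrophil-like, 13 in monocyte-like, 9 in border macrophage-like, 4 in NK-like and 3 in T-like cells, and none was called in any of them. Of 14 immediate early genes that tissue digestion can induce, 7 to 12 were tested per class, none was called, and their median log2 fold changes ran from -0.40 to -0.30 against -0.03 to 0.00 over all genes. In monocyte-like cells Atf3 and Egr1 of this list, at adjusted p = 0.0920 and 0.154, were called lower in CSD with barcodes of at least 1000 UMIs, with doublets kept, with genes of at least 20 UMIs and without the top cell of each library. Hspa1a was called lower in border macrophage-like cells with barcodes of at least 1000 UMIs. Of the 28 other chemokine genes, 6 were tested in border macrophage-like and 2 in monocyte-like cells, with none called. With genes of at least 20 UMIs, Ccl12 was called higher in CSD in border macrophage-like cells (0.264% of genes called) and Pf4 lower in monocyte-like cells (0.967%). Among neutrophil maturation genes, Il1r2, a decoy receptor for interleukin-1, was higher in CSD in neutrophil-like cells (log2 fold change 1.16, edgeR adjusted p = 0.00901). Il1r2 was not called with barcodes of at least 1000 UMIs, with genes of at least 20 UMIs (adjusted p = 0.136), without TMM scaling or after subtraction of the empty-droplet profile, and in empty droplets it was at 48.8, 49.8 and 118 CPM. For the 8 immature genes the median log2 fold change was 0.36 in neutrophil-like cells with none called, and of 0.40 to 0.58 in the other 4 classes, where Mmp8 was called higher in CSD in monocyte-like and Ngp in T-like cells. Ngp in empty droplets was at 8770, 12887 and 16006 CPM. The part of free RNA in these values was not tested.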

How the data were processed

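Meningeal cells from 3 pools of 4 mice were profiled with 10x Genomics 3′ v2 chemistry on separate lanes of 1 chip, and a further CSD library was lost before sequencing. The authors deposited whole-number counts of UMIs per gene and barcode in 1 matrix, made with Cell Ranger version 2 on build mm10 per the submitters' processing notes, without normalization. The library was told from the number that ends each barcode. The rule for barcodes follows the filters of the study, with 500 UMIs in place of its cell calling. Doublets were scored with Scrublet and removed (1.81%, 1.47% and 5.12% of barcodes, the last by top scores because the automatic threshold marked 0.145%). Cells were corrected by mutual nearest neighbours over 50 components and clustered with Leiden at resolution 1 (scanpy 1.11.5, Python 3.11.15), and clusters were named from marker genes, never by the authors' annotation, so class borders are rebuilt.

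UMIs were summed per library and class and tested with edgeR 4.0.16 (R 4.3.3) at an adjusted p of 0.05. DESeq2 1.42.0, other filters, no TMM scaling and each HC library left out were tried, as were 2 alternatives chosen after seeing the data (subtraction of the empty-droplet profile, and the 1 cell with most member UMIs left out in each class and library). Scripts were tested on simulated data. The rule for named genes takes the 7 members, the 3 genes most like each, and genes of lists of receptors, other chemokines and early response regulators. Marker and cluster-leading genes, called genes of the digestion and maturation lists, and the 5 genes called in 3 classes were named after their values were seen. One gene that this rule names is not reported here. Members and lists were chosen with earlier results of these data known. Intervals cover counting error only. The labels name separate pools, so p-values rest on the spread between the 2 HC pools, moderated across genes. No spread between CSD pools could be measured. Depth per library was 8814690 to 10206236 UMIs. In UMIs summed over a class, fewer transcripts per cell and fewer expressing cells were not separated except where shares of cells are given.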

Additional observations from a re-analysis of the deposited data

Results flagged for a closer look

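The effect of CSD on Ccl3 differed between neutrophil-like and border macrophage-like cells by -1.04 on the log2 scale in a test of the difference itself (edgeR adjusted p = 0.0217), with CSD below both HC libraries in neutrophil-like cells (145, 176 and 61.5 CPM) and between them in border macrophage-like cells (745, 1323 and 819 CPM). Of the 55 genes called in this test, 54 differed in this direction. The difference was not tested after subtraction of the empty-droplet profile. The part of the unlike mix of border macrophage-like cells between libraries was not tested either. Ccl3 in neutrophil-like cells of CSD was at 0.92 times the level expected from free RNA. The call was lost with DESeq2 (adjusted p = 1.00), without TMM scaling (0.353) and without the top cell of each library (0.129).

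For 4 genes the CSD library lay above both HC libraries in some classes and below both in others, and except for 1 pair these differences were not tested. For Ccl3 the log2 fold change of NK-like cells was 2.54 above that of neutrophil-like and 2.19 above that of monocyte-like cells. For Ccl4 the same distances were 1.87 and 1.70 from NK-like cells, and 1.47 and 1.30 from T-like cells. For Ccl5 NK-like cells were 1.04, 0.96 and 0.93 above neutrophil-like, monocyte-like and border macrophage-like cells, and T-like cells were 0.86, 0.77 and 0.74 above them. In neutrophil-like and monocyte-like cells Ccl5 was at 0.88 to 1.34 and 0.93 to 1.00 times the level expected from free RNA. Ccl4 was at 0.88 to 1.17 and 1.00 to 1.57 times it there. In border macrophage-like cells 1 cell of HC replicate 1 held 295 of 488 Ccl5 UMIs. Without the top cells the Ccl5 fold change there was 0.14. For Ccl9 monocyte-like cells were 0.57 above neutrophil-like cells, where Ccl9 was at 0.93 to 1.17 times the level expected from free RNA. The pair that was tested was Ccl9 in neutrophil-like and border macrophage-like cells, with a difference of -0.66 that did not pass (edgeR adjusted p = 0.385). With the top cell of each library left out, Ccl3 and Ccl4 in NK-like cells of CSD lay between the HC libraries.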

How the results depend on the processing

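No paired analysis was possible because the libraries came from separate pools, and the replicate number pairs no HC pool with the CSD pool. Without TMM scaling the median log2 fold change of all genes in neutrophil-like cells was -0.11 and that of the neutrophil to macrophage difference -0.15. Counts of genes called varied with the processing, and causes were not tested. In neutrophil-like cells the 14 calls became 1 at 1000 UMIs per barcode, 5 with doublets kept, 1 with genes of at least 20 UMIs, 0 after subtraction of the empty-droplet profile and 3 without TMM scaling. In monocyte-like cells the 10 calls became 39, 44, 43 without mutual-nearest-neighbour correction, 52, 0, 37 without the top cell of each library, 3 with DESeq2 and 24 without TMM scaling. In border macrophage-like cells 0 calls became 8 at 1000 UMIs, 5 without neighbour correction, 15 with genes of at least 20 UMIs, 7 without the top cell, 1 with DESeq2 and 6 without TMM scaling. In NK-like cells 0 became 9 at 1000 UMIs, 6 after subtraction, 18 without the top cell and 17 without TMM scaling. In T-like cells 19 became 12 at 1000 UMIs, 7 with doublets kept, 0 at Leiden resolution 2, 8 with genes of at least 20 UMIs, 0 after subtraction, 1 with DESeq2 and 2 without TMM scaling. The 55 calls of the neutrophil to macrophage difference became 1 with DESeq2 and 1 without TMM scaling. The 1 call of the NK to T difference became 2 at 1000 UMIs, 2 with doublets kept, 2 with genes of at least 20 UMIs, and 0 without neighbour correction, at Leiden resolution 2, without the top cell and with DESeq2.

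Mean levels moved beyond the spread of the libraries for Ccl5 in NK-like cells (12825 CPM at 1000 UMIs and 12980 CPM with doublets kept), Ccl3 in microglia-like cells (1210 and 1171 CPM) and Ccl6 in neutrophil-like cells (1586 CPM at 1000 UMIs). At 1000 UMIs and with doublets kept, the NK-like class was smaller and led by Gzma (36, 29 and 49, and 36, 29 and 50 cells). The log2 fold changes that changed sign were called neither in the main nor in the changed setting. In neutrophil-like cells Ccl6 was 0.061 at 1000 UMIs and 0.11 with genes of at least 20 UMIs. In monocyte-like cells Cxcl2 was -0.17 without neighbour correction, -0.037 without the top cell and -0.0075 without TMM scaling. In border macrophage-like cells Ccl5 was 0.14 without the top cell. In NK-like cells Xcl1 was -0.0089 without neighbour correction, -0.19 after subtraction and -0.54 without the top cell, Ccl3 was -0.40 without the top cell, and Ccl6 was 0.089 with doublets kept and 0.0070 without neighbour correction. In T-like cells Cxcl2 was 0.17 with doublets kept, Ccl5 -0.066 after subtraction, and Ccl3 -0.19 at 1000 UMIs and -0.094 with doublets kept. For the neutrophil to macrophage difference Ccl5 was 0.23 without neighbour correction and Ccl6 -0.029 without TMM scaling. For the NK to T difference Ccl6 was -0.0029 without TMM scaling, and without the top cell Xcl1 was -0.10, Ccl3 -0.59 and Ccl4 -0.73.

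Leaving out HC replicate 1 or 2 gave ranges across 0 for genes that were not called. In neutrophil-like cells Ccl6 ran from -0.12 to 0.076, and in monocyte-like cells Cxcl2 from -0.29 to 0.39. In border macrophage-like cells Ccl6 ran from -0.37 to 0.16, Ccl3 from -0.70 to 0.15 and Ccl4 from -0.64 to 0.58. In NK-like cells Xcl1 ran from -0.18 to 0.31, Ccl9 from -0.84 to 0.19 and Ccl6 from -0.54 to 0.41. In T-like cells Cxcl2 ran from -0.41 to 0.37, Ccl5 from -0.032 to 0.23, Ccl9 from -0.17 to 0.55 and Ccl3 from -0.20 to 0.56.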
